A study of Mus musculus with 6 samples.

Results

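Cholesterol is made from acetyl-CoA through the mevalonate pathway, and SREBP transcription factors set how much of the pathway a cell makes. The genes described here are 31 such genes, found by symbol among 47593 gene rows: 5 SREBP factors and regulators, 8 enzymes of the mevalonate and isoprenoid steps, 11 enzymes of the squalene and sterol steps, 2 genes of sterol transport and uptake control, and 5 genes of fatty acid synthesis. They were chosen by name and function and do not cover every enzyme of these pathways. RNA-seq was made of mouse cells isolated from femur bone marrow by c-Kit, a surface receptor of early blood cells, and infected with the retroviral vector MSCVneo-MLL-AF9. MLL-AF9 is a leukaemia fusion protein that keeps early myeloid cells dividing in culture. One group of 3 libraries carried the unchanged fusion (WT) and the other group of 3 carried its E531R form, which by the title of the series lacks AF9 binding to the corepressor BCoR. Both groups therefore held MLL-AF9, went through G418 selection and were passaged repeatedly in methylcellulose with cytokines, and no cells without the fusion are among the 6 libraries. The labels give no strain, age or sex, and do not say whether replicates came from separate animals or infections, so the p-values measure a spread between libraries that may be technical.

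When membrane cholesterol is low, the escort protein SCAP carries SREBP from the endoplasmic reticulum to the Golgi, where it is cut and sent to the nucleus. When cholesterol is sufficient, INSIG proteins hold SCAP back. SREBP2, from Srebf2, mainly drives sterol synthesis and uptake, and the SREBP1 forms from Srebf1 mainly drive fatty acid synthesis. Dividing blood cells need both products for membranes.

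Promoter bases are shown first for 4 genes, because SREBP is known to bind DNA beside NF-Y and Sp1 at many of these genes. RefSeq (GRCm38.p6) entries were matched for 25 of the 31 members, with 33 start sites among them, and the 250 bases before each start were searched on both strands. Fdft1, Fdps, Sqle, Stard4, Scd1 and Scd2 had no matched entry, so the motif shares leave them out. The 3 motifs were TCACNCCA (an SREBP-type element, TGGNGTGA on the other strand), CCAAT (NF-Y, or ATTGG) and GGGCGG (Sp1, or CCGCCC), and 0 matches of different motifs overlapped. In the sequences below, given 5′ to 3′ on the gene's strand, capitals mark TCACNCCA and CCAAT on either strand. Hmgcs1 and Srebf2 are shown as members with the SREBP-type letters, Hsd17b7 as the member with the smallest adjusted p, and Fasn as the gene of fatty acid synthase. Bases inside the GENCODE bounds of a gene were left out, which shortened the Srebf2 and Hsd17b7 entries.
Hmgcs1, chr13:119690101-119690350, plus strand: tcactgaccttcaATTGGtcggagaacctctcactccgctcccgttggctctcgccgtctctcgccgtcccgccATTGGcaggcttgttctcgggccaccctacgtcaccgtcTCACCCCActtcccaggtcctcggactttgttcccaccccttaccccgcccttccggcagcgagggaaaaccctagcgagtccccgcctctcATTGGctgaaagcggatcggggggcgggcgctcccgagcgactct
Srebf2, chr15:82147019-82147180, plus strand: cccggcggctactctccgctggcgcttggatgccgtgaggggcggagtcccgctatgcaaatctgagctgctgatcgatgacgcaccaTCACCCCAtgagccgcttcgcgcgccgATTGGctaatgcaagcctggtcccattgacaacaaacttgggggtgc
Hsd17b7, chr1:169969242-169969455, minus strand: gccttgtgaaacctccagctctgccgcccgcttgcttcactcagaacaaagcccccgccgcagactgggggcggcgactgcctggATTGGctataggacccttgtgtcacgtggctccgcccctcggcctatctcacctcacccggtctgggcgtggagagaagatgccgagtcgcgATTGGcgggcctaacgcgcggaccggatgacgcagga
Fasn, chr11:120824548-120824797, minus strand: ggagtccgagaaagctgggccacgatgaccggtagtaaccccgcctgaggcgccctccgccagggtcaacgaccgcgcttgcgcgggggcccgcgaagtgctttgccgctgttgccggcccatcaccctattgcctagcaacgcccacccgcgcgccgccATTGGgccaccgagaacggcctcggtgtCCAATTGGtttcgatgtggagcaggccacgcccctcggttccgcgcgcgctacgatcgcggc

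The letters TCACNCCA were present in 3 of the 25 matched members (12%), against 4.20% of all 27025 genes with an entry. These members were Hmgcs1, Msmo1 and Srebf2, with the match ending 130, 170 and 155 bases before the start. CCAAT was present in 21 of the 25 (84%), against 37.5% of all genes, and was missing in Acaca, Acat2, Acly and Scap. GGGCGG was also present in 21 (84%), against 35.4% of all genes, and was missing in Acaca, Fasn, Ggps1 and Pmvk. Counted over the 33 start sites, the shares were 9.09%, 66.7% and 72.7%, against 3.67%, 33.8% and 32.7% of all 32851 start sites. The comparison genes were not limited to genes tested here, whereas all members were tested. A match is a description of the letters and does not show that a factor binds there.

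The libraries held between 14161139 and 33459668 reads assigned to genes. Values are normalised read counts, which are reads divided by the authors' size factor for the library. WT replicate 3 stood apart with GC content: over 12569 tested genes its deviation from the other WT libraries had a Spearman rho of 0.64 with transcript GC content. The log2 ratios of members and named genes are therefore given with and without it. Kit, the gene of the receptor by which the cells were isolated, had 3587 ± 100 (WT) and 3335 ± 4.07 (E531R; SD, n = 3 each). With limma over 6 libraries Kit did not pass (log2 ratio -0.10, adjusted p = 0.28). Of 7 tested progenitor markers 3 were higher in E531R and 0 lower: Cd34 at a log2 ratio of 1.01, Prtn3 at 0.67 and Mpo at 0.56 (adjusted p = 0.00132, 0.0129 and 0.00631). Over 6 libraries, 10.4% of all genes tested were higher and 9.53% lower. Without WT replicate 3, 4 progenitor markers were higher and 2 lower, in a fit that called 24.3% and 23.1% of all genes. The lower ones were Kit (-0.11, adjusted p = 0.0212 by limma) and Ptprc (-0.10, adjusted p = 0.0393). The summed level of the 7 markers was 216610 to 263415 in WT and 305159 to 317418 in E531R. Markers of more mature cells moved with the groups: 11 of 11 tested neutrophil markers were higher in E531R, with a summed level of 6507 to 8781 in WT and 69185 to 76862 in E531R. Of 10 tested macrophage and monocyte markers 9 were higher and 1 lower, with sums of 4285 to 6722 (WT) and 10909 to 12200 (E531R). The lower marker was Ccr2, which fell from 5103, 5434 and 2807 in the WT libraries to 798, 829 and 738 with E531R. Ccr2 was the largest part of the sum in each WT library, so these sums understate the rise of the other 9. The tissue macrophage genes C1qa, C1qb and C1qc had at most 3 reads each over the 6 libraries. Of the markers of other lineages, 0 of 1 tested erythroid, 2 of 3 megakaryocyte, 0 of 2 mast cell, 0 of 1 B cell, 0 of 2 T and NK cell and 0 of 2 stroma markers were higher, and 1 each of the mast cell, T and NK cell and stroma markers was lower. Among the markers counted as higher, Mmp9, Cx3cr1 and Pf4 had WT means of 5.14, 5.70 and 5.48. They met the filter on low values (a mean of at least 10) through E531R alone. The part of the shift in cell type markers in the results below was not tested. In bulk RNA, fewer cells with a transcript and less transcript per cell cannot be told apart.

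The comparison of E531R with WT asks which transcripts differ when the fusion loses BCoR binding. Most differences in the cholesterol and fatty acid genes were small. With limma over all genes (two-sided, threshold of adjusted p 0.05, 31 of 31 members tested), 5 members rose in E531R: Fdps, Fdft1, Msmo1, Hsd17b7 and Sc5d, which are enzymes of the path from mevalonate to cholesterol. Another 3 fell: Acat2, which acts before mevalonate on the same pathway, and Acaca and Scd1, which make fatty acids. The other 23 did not pass. After correction of each library for its GC content and transcript length trend, Msmo1, Hsd17b7, Sc5d and Acaca lost their calls. Of the 31 members, 1 (Scd1) differed by more than 1.5-fold.

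The share of members called was 25.8% (8 of 31), against 19.9% of all 12991 genes tested. Higher members made up 16.1% (background 10.4%) and lower members 9.68% (background 9.53%). The groups did not overlap in 16 members (51.6%), 9 higher and 7 lower, against 44.0% of all genes (21.2% higher and 22.8% lower). The log2 ratio is the difference in mean log2(value + 1), E531R minus WT, and its median was -0.03 for the members and 0.01 for all genes tested. Without WT replicate 3, 11 members passed as higher and 6 as lower (54.8% called), against 24.3% and 23.1% of all genes (47.4% in either direction). Omitting any other library gave fewer higher members: 2 higher and 1 lower for WT replicate 1 (7.89% and 6.94% of all genes), 1 and 3 for WT replicate 2 (8.68% and 8.11%), and 1 and 1 for E531R replicate 1 (6.30% and 5.74%). They were 1 and 0 for E531R replicate 2 (6.40% and 5.79%) and for E531R replicate 3 (6.48% and 6.07%), with 6 and 3 at an unadjusted p under 0.05 by limma in both. After correction of each library for its GC content and transcript length trend, 4 members were higher (12.9%, Fdps, Fdft1, Hmgcs1 and Mvd) and 2 lower (6.45%, Acat2 and Scd1), against 15.6% and 16.4% of all genes. The authors' deposited table has 5 members higher and 2 lower at the same threshold, against 7.91% and 7.50% of its genes. In the authors' deposited table Hmgcs1 passes (adjusted p 0.0496), while Msmo1 (0.113) and Acaca (0.0611) do not. With limma, the shares called in either direction lay near the background, over 6 libraries and without WT replicate 3. After correction for GC content and length, the shares in each direction were below those of all genes.

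**Figure D1:**
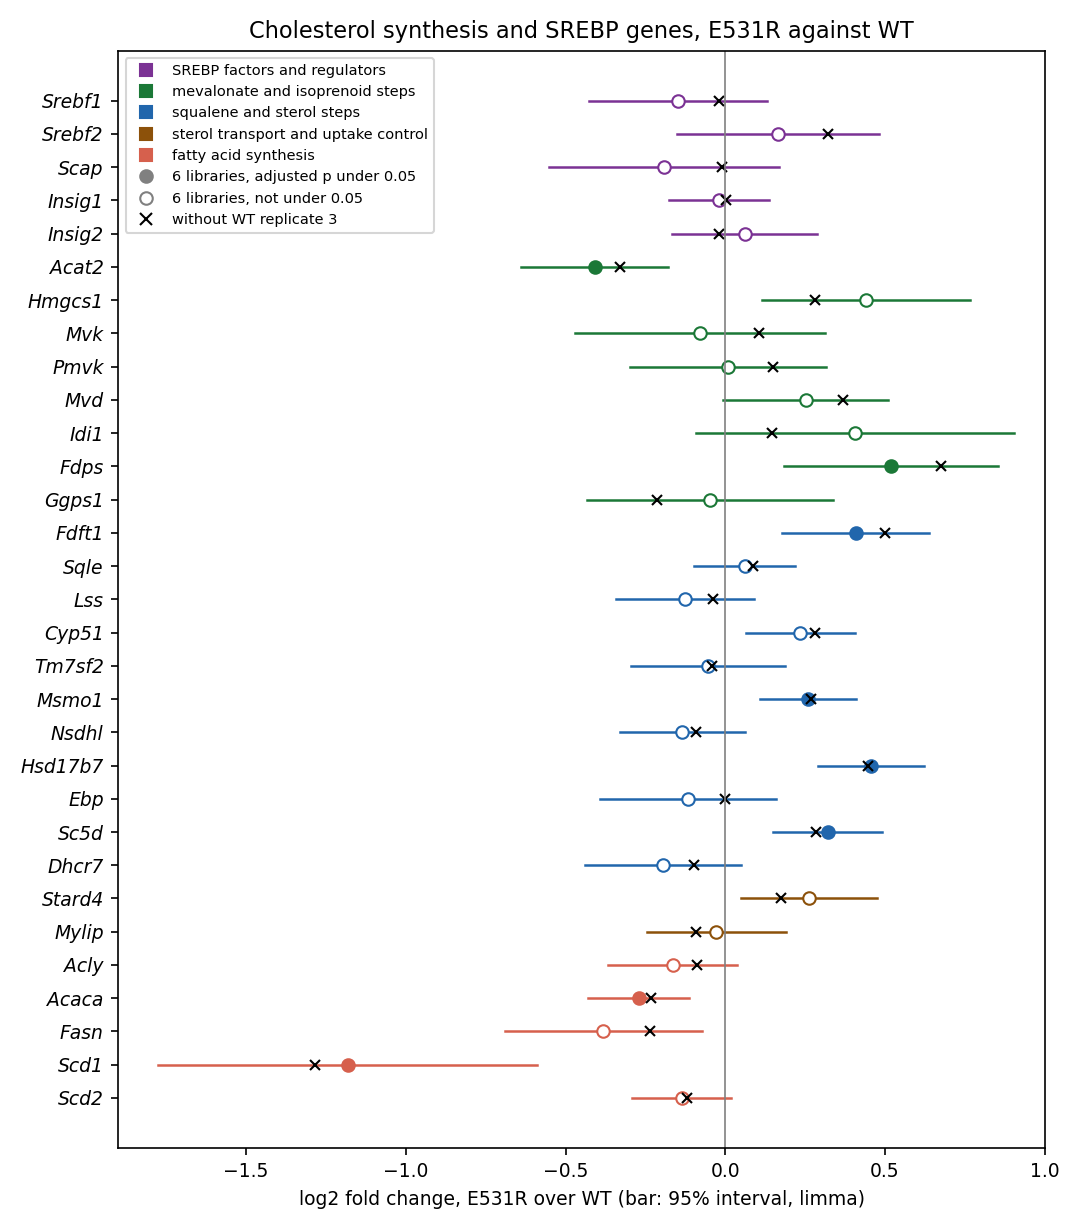
Log2 fold change of E531R over WT (x axis) for the 31 members (rows, coloured by role), with the 95% interval of limma as a bar. Filled circles have an adjusted p under 0.05 over 6 libraries and crosses are the values without WT replicate 3; filled sterol-step circles lie right of 0 and all 5 fatty acid genes lie left of it, with Scd1 farthest at -1.18.

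None of the 5 SREBP factors and regulators passed over 6 libraries with limma (unadjusted p from 0.247 to 0.779), and their log2 ratios lay between -0.19 and 0.17. Srebf2, the gene of the main sterol-pathway factor, had normalised read counts of 4655, 4619 and 6420 in WT replicates 1, 2 and 3, and 5905, 5664 and 5817 in the E531R replicates. All 3 E531R values were above those of WT replicates 1 and 2 and below that of WT replicate 3. Its log2 ratio was 0.17 (95% interval -0.15 to 0.48; adjusted p = 0.438), and it passed without WT replicate 3 at 0.32 (adjusted p = 1.53e-06). Srebf1, the gene of the fatty acid pathway factor, had 3434, 3393 and 4471 in WT and 3517, 3315 and 3284 in E531R. The E531R values surrounded those of WT replicates 1 and 2. Its log2 ratio was -0.15 (interval -0.43 to 0.13; adjusted p = 0.427) and -0.02 without WT replicate 3 (adjusted p = 0.743).

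Scap, the escort protein gene, had 2335, 2254 and 3353 in WT and 2336, 2251 and 2253 in E531R, so WT replicate 3 alone stood apart from 5 libraries that lay within 2251 to 2336. The log2 ratio of Scap was -0.19 (adjusted p = 0.429), and -0.01 without that library (adjusted p = 0.874). Insig1, the retention protein gene that is itself a classic SREBP target, had 1038, 1054 and 1094 in WT and 1030, 1078 and 1035 in E531R. The groups overlapped, and the log2 ratio of -0.02 had an interval from -0.18 to 0.14 (adjusted p = 0.86), with 0.0023 without WT replicate 3 (adjusted p = 0.975). Insig2, its paralogue, had 412, 406 and 346 in WT and 410, 408 and 393 in E531R (log2 ratio 0.06, interval -0.17 to 0.29; adjusted p = 0.692), and -0.02 without WT replicate 3 (adjusted p = 0.844). The summed level of the 5 genes was 11725 to 15685 in WT and 12715 to 13198 in E531R.

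Among the 8 mevalonate and isoprenoid genes, Fdps rose, Acat2 fell and 6 did not pass. Of all genes tested, 10.4% rose and 9.53% fell. Acat2 makes acetoacetyl-CoA, the substrate that starts the pathway in the cytosol (chromosome 17, 12942890 to 12960747). It had 916, 915 and 1081 in WT and 691, 717 and 780 in E531R. Each E531R value was below each WT value, and the mean was 1.33-fold lower (log2 ratio -0.41, SE 0.096; adjusted p = 0.0254). The call held without WT replicate 3 (-0.33, adjusted p = 0.000248). It did not hold when WT replicate 1 was omitted (adjusted p = 0.0519), nor for any of E531R replicates 1, 2 and 3 (0.122, 0.111 and 0.0571).

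Hmgcs1 uses that product to make HMG-CoA and is among the best known SREBP2 targets. It had 1418, 1393 and 1009 in WT and 1687, 1769 and 1667 in E531R, with no overlap. Its log2 ratio was 0.44 (interval 0.11 to 0.77; adjusted p = 0.068), and WT replicate 3 held the lowest value. It passed without that library at a smaller 0.28 (adjusted p = 6.90e-05), and after correction for GC content and length at 0.24 (adjusted p = 0.00761).

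Mvk, Pmvk and Mvd act in turn on mevalonate to give isopentenyl diphosphate. Mvk had 528, 455 and 716 in WT and 552, 524 and 506 in E531R, and Pmvk had 457, 489 and 632 in WT and 520, 526 and 526 in E531R. Both sets of E531R values lay inside the WT range. With and without WT replicate 3 the log2 ratios were -0.08 and 0.10 for Mvk (adjusted p = 0.767 and 0.276), and 0.0088 and 0.15 for Pmvk (0.971 and 0.0746). Mvd had 963, 985 and 1242 in WT and 1266, 1235 and 1272 in E531R. Here WT replicate 3 lay among the E531R libraries while the other WT libraries were below them. Mvd passed without WT replicate 3 (log2 ratio 0.37, adjusted p = 6.72e-06) and not with it (0.25, adjusted p = 0.162). After correction for GC content and length it passed over 6 libraries (0.33, adjusted p = 0.00181).

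Idi1, the isomerase of the activated isoprene units, had 889, 910 and 524 in WT and 1015, 959 and 1013 in E531R. WT replicate 3 was the lowest of the 6 libraries, and the log2 ratio went from 0.40 (adjusted p = 0.235) to 0.15 without it (adjusted p = 0.0292). Fdps joins the units into farnesyl diphosphate (chromosome 3, 89093588 to 89101959). It had 276, 282 and 387 in WT and 448, 440 and 451 in E531R. Every E531R value was above every WT value, with means 1.42-fold apart and a log2 ratio of 0.52 (SE 0.14; adjusted p = 0.0432). Without WT replicate 3 it was 0.67 (adjusted p = 1.01e-06).

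The Fdps call was lost in each fit that omitted another library and kept WT replicate 3: WT replicate 1 or 2 (adjusted p = 0.122 and 0.109) and E531R replicate 1, 2 or 3 (0.146, 0.136 and 0.143). The annotation places the gene Gm43738 over 7512 bases of Fdps on the same strand, with a mean of 0.116, so reads matching both genes could be missing from Fdps. Ggps1, which makes geranylgeranyl diphosphate for protein prenylation, had 485, 576 and 375 in WT and 479, 475 and 417 in E531R, with overlapping groups and a log2 ratio of -0.05 (adjusted p = 0.858). It passed toward lower values without WT replicate 3 (log2 ratio -0.21, adjusted p = 0.0486). The summed level of the 8 genes was 5932 to 6006 in WT and 6631 to 6660 in E531R, and these sums did not overlap. Of all single genes tested, 21.2% were higher in E531R without overlap. WT replicate 3 was above both other WT libraries for Acat2, Mvk, Pmvk, Mvd and Fdps. It was below both for Hmgcs1, Idi1 and Ggps1, so its deviations offset each other in the sum.

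Of the 11 genes of the squalene and sterol steps, 4 rose and 0 fell, against 10.4% and 9.53% of all genes tested. The median log2 ratio was 0.06. After correction for GC content and length, only Fdft1 of the 11 passed. The summed level of the 11 genes was 10153.7 to 11398.5 in WT and 11255.6 to 11494.7 in E531R, and these sums overlapped. Fdft1, squalene synthase, is the first enzyme committed to sterols (chromosome 14, 63145150 to 63179578). It had 611, 599 and 732 in WT and 826, 870 and 872 in E531R. The groups did not overlap, and the log2 ratio was 0.41 (SE 0.097; adjusted p = 0.0267), or 0.50 without WT replicate 3 (adjusted p = 1.50e-06). Fdft1 fell short of the threshold on omission of WT replicate 1 or 2 (adjusted p = 0.0923 and 0.0758) and of each E531R replicate (0.0881, 0.117 and 0.112 for 1, 2 and 3). Fdft1 overlaps Ctsb, a lysosomal protease gene, by 774 bases on the opposite strand. Ctsb had a mean of 9392 and rose by 0.76 on the log2 scale (adjusted p = 0.00178). No source used here gives the strand setting of the counting, and whether Ctsb reads entered Fdft1 was not tested.

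Sqle, the squalene epoxidase that controls flux late in the pathway, had 1898, 1790 and 1945 in WT and 1971, 1901 and 2000 in E531R. The groups overlapped, and the log2 ratio of 0.06 had an interval from -0.10 to 0.22 (adjusted p = 0.565), and was 0.09 without WT replicate 3 (adjusted p = 0.123). Lss closes the ring to lanosterol and had 1081, 1090 and 1302 in WT and 1048, 1070 and 1051 in E531R. Its E531R values were all below the WT values, though the difference did not pass (log2 ratio -0.13, interval -0.34 to 0.09; adjusted p = 0.386), nor without WT replicate 3 (-0.04, adjusted p = 0.534).

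Cyp51 removes the first methyl group of lanosterol and had 1290, 1292 and 1419 in WT and 1527, 1551 and 1628 in E531R. The groups did not overlap; its log2 ratio of 0.24 missed the threshold (adjusted p = 0.0651), and it passed with TMM rescaling (0.24, adjusted p = 0.0498) and without WT replicate 3 (0.28, adjusted p = 8.53e-05). Msmo1 removes further methyl groups (chromosome 8, 64718139 to 64733792). It had 891, 885 and 904 in WT and 1056, 1078 and 1073 in E531R. Its WT libraries spread least, relative to their mean, of the 31 members.

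Msmo1 had a log2 ratio of 0.26 (SE 0.063; adjusted p = 0.0284), and 0.27 without WT replicate 3 (adjusted p = 0.000253). It missed the threshold on omission of WT replicate 1 or 2 (adjusted p = 0.0932 and 0.0767) and of each E531R replicate (0.127, 0.145 and 0.12 for 1, 2 and 3). After correction of each library for its GC content and length trend, the log2 ratio was 0.12 (adjusted p = 0.286).

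Hsd17b7, the 3-keto-sterol reductase of the same demethylation step, had the smallest adjusted p of the 31 genes (chromosome 1, 169949535 to 169969241). It had 688, 750 and 704 in WT and 966, 987 and 986 in E531R. The WT libraries, replicate 3 included, lay together well below the E531R libraries, with means 1.37-fold apart. The log2 ratio was 0.46 (SE 0.070; adjusted p = 0.00400) and 0.45 without WT replicate 3 (adjusted p = 4.31e-06), and the call held when each of the 6 libraries was left out. It was lost after correction for GC content and length (0.28, adjusted p = 0.114). Nsdhl, the dehydrogenase that acts just before it, had 522, 496 and 557 in WT and 468, 464 and 501 in E531R, and did not pass (log2 ratio -0.13, interval -0.33 to 0.06; adjusted p = 0.314), nor without WT replicate 3 (-0.09, adjusted p = 0.296).

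Sc5d, the desaturase that gives 7-dehydrocholesterol or its precursor (chromosome 9, 42251595 to 42264256), had 771, 738 and 701 in WT and 920, 936 and 902 in E531R. The groups did not overlap, and the log2 ratio was 0.32 (SE 0.071; adjusted p = 0.0203), or 0.29 without WT replicate 3 (adjusted p = 0.000303). Omitting WT replicate 2 (adjusted p = 0.0558) or an E531R replicate (0.105, 0.111 and 0.0793 for 1, 2 and 3) ended the call, as it ended after correction for GC content and length (log2 ratio 0.11, adjusted p = 0.511). The other sterol enzymes did not pass with or without WT replicate 3: Tm7sf2, a C14 reductase, at -0.05, Ebp, an isomerase, at -0.12, and Dhcr7, the last reductase, at -0.19. Their intervals were -0.29 to 0.19, -0.39 to 0.16 and -0.44 to 0.05, and the values without WT replicate 3 were -0.04, -0.0023 and -0.10. The changed sterol genes were thus interspersed along the pathway with genes that did not pass.

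**Figure D2:**
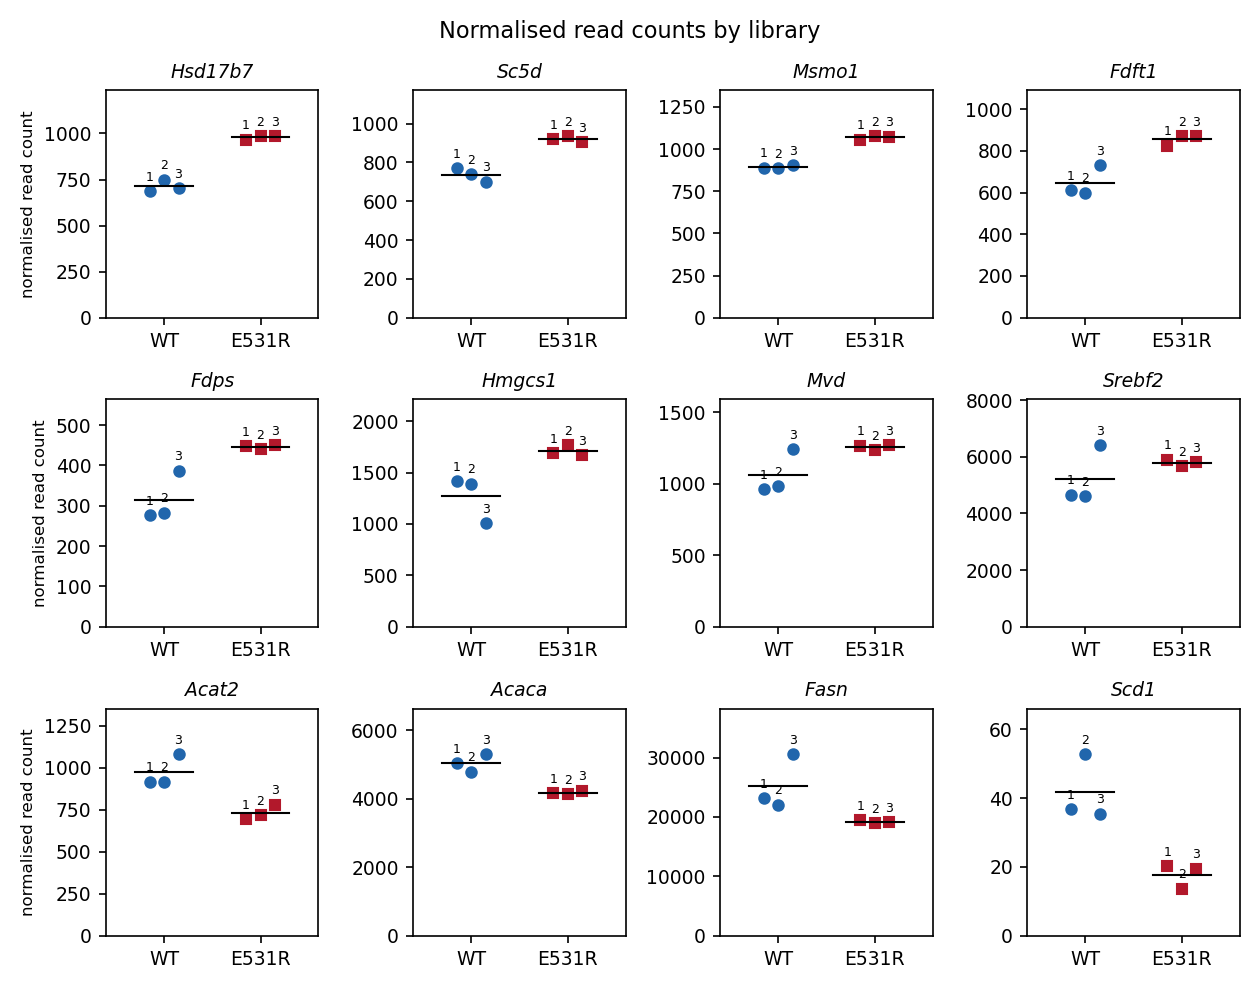
Normalised read counts (y axis, from 0, with a scale per gene) of 12 members in the 3 WT (blue circles) and 3 E531R (red squares) libraries, numbered by replicate, with bars at group means. Hsd17b7 separates 688 to 750 in WT from 966 to 987 in E531R, whereas in Mvd and Srebf2 WT replicate 3 lies apart from the other WT libraries.

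Stard4, a carrier that moves cholesterol between membranes, had 3006, 3025 and 2507 in WT and 3316, 3417 and 3468 in E531R, with no overlap. Over 6 libraries it did not pass (log2 ratio 0.26, interval 0.05 to 0.48; adjusted p = 0.0907) and passed at 0.17 without WT replicate 3 (adjusted p = 0.00129). Mylip, a ubiquitin ligase that degrades lipoprotein receptors and is switched on by the sterol sensor LXR, had 637, 620 and 550 in WT and 627, 584 and 560 in E531R. Its groups overlapped, with a log2 ratio of -0.03 (interval -0.24 to 0.19; adjusted p = 0.853), or -0.09 without WT replicate 3 (adjusted p = 0.264).

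The 5 fatty acid synthesis genes all had lower values in every E531R library than in every WT library, against 22.8% of all genes tested. By the test 2 of the 5 fell, Acaca and Scd1, against 9.53% of all genes tested. Only Scd1 passed after correction for GC content and length. Acaca, acetyl-CoA carboxylase and the committed step of the pathway (chromosome 11, 84129672 to 84401651), had 5027, 4786 and 5302 in WT and 4160, 4130 and 4228 in E531R. Its log2 ratio was -0.27 (SE 0.066; adjusted p = 0.0295) and -0.23 without WT replicate 3 (adjusted p = 7.33e-05). Omitting WT replicate 1 (adjusted p = 0.0941) or an E531R replicate (0.139, 0.146 and 0.107 for 1, 2 and 3) ended the call, as it ended after correction for GC content and length (-0.26, adjusted p = 0.0594).

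Fasn, fatty acid synthase, had 23124, 22093 and 30623 in WT and 19450, 18976 and 19168 in E531R. Its log2 ratio of -0.38 did not pass (interval -0.69 to -0.07; adjusted p = 0.0876). Without the high WT replicate 3 it passed at -0.24 (adjusted p = 6.90e-05), and with DESeq2 on recovered reads over 6 libraries it passed at -0.39 (adjusted p = 0.0344). Acly, which makes cytosolic acetyl-CoA from citrate, had 10652, 10140 and 12177 in WT and 9816, 9643 and 9864 in E531R (log2 ratio -0.16; adjusted p = 0.234, and 0.057 without WT replicate 3).

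The stearoyl-CoA desaturases, which make monounsaturated fatty acids, differed in level and in the size of their difference. Scd1 (chromosome 19, 44394455 to 44407879) had 36.7, 52.8 and 35.4 in WT and 20.2, 13.6 and 19.5 in E531R, from 23, 46 and 45 reads and 29, 14 and 20 reads. The groups did not overlap, and the mean was 2.35-fold lower in E531R (log2 ratio -1.18, SE 0.25; adjusted p = 0.0164). Without WT replicate 3 the log2 ratio was -1.28 (adjusted p = 0.000914), and omitting E531R replicate 2 or 3 ended the call (adjusted p = 0.063 and 0.0504). Scd2, the neighbouring paralogue on the same chromosome, had 12491, 12615 and 12986 in WT and 11625, 11916 and 11130 in E531R, with no overlap. Its log2 ratio was -0.14 (interval -0.29 to 0.02; adjusted p = 0.203), and -0.12 without WT replicate 3, which passed (adjusted p = 0.0162). The difference between Scd1 and Scd2 in log2 ratio was not tested, and reads of near-identical stretches of these paralogues may be counted uncertainly.

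To compare levels between genes, reads were also expressed per kilobase of the longest transcript and relative to the library's total, as RPKM. On this scale Fasn had 109 ± 15.7 in WT and 81.9 ± 1.22 in E531R, Acly 107 ± 6.48 and 94.7 ± 0.607, and Scd2 101 ± 1.79 and 90.9 ± 4.07 (SD, n = 3 each). These were the most abundant members in WT and E531R. Their order in WT turned on WT replicate 3: Fasn had 102, 97.2 and 126 in WT replicates 1, 2 and 3, Acly 106, 101 and 114, and Scd2 101, 102 and 98.8, so Fasn exceeded Acly in that library alone. Scd1 was the least abundant, at 0.375 ± 0.0956 and 0.157 ± 0.031, so the Scd2 level was 269 times that of Scd1 in WT (248 times without WT replicate 3) and 577 times in E531R.

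Srebf2 had a level per length of 44.4 ± 6.99 in WT and 48.9 ± 0.945 in E531R, and Srebf1 37.8 ± 4.65 and 33.6 ± 1.43 (SD, n = 3 each). The ranges these SDs span for the pair meet in WT, where the means without WT replicate 3 were 40.4 and 35.1. Within each WT library Srebf2 exceeded Srebf1. In WT replicates 1, 2 and 3 Srebf2 had 40.6, 40.2 and 52.5, and Srebf1 35.3, 34.9 and 43.2. Among enzymes of the mevalonate, isoprenoid and sterol steps, Mvd (30.7 ± 0.294) and Sqle (30.4 ± 0.536) had the highest E531R levels. Mvd and Sqle do not differ beyond their SDs. The lowest were Tm7sf2 (7.98 ± 0.855) and, below it, Ggps1 (4.62 ± 0.398). Insig1 exceeded Insig2, at 16.7 ± 0.556 against 6.42 ± 0.207 in E531R.

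**Figure D3:**
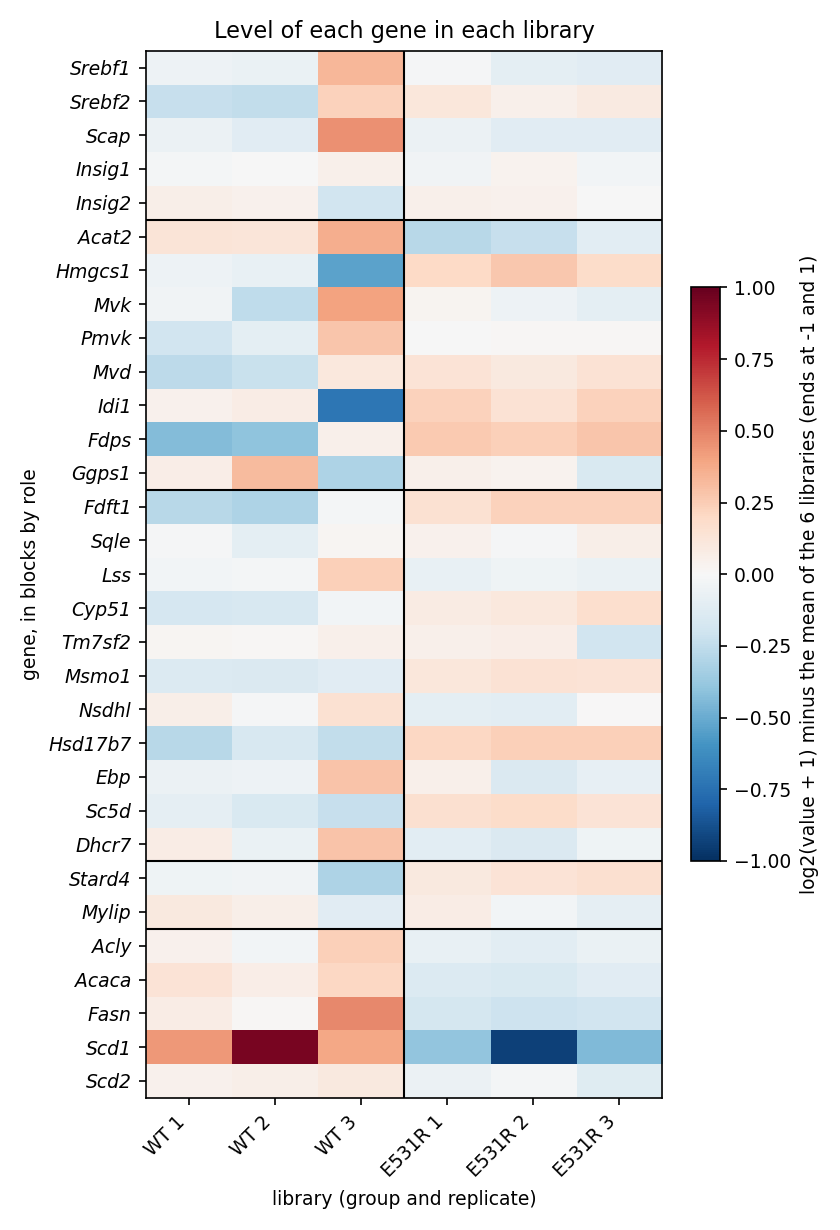
Each row is 1 of the 31 members, in blocks by role, each column 1 of the 6 libraries, and the colour is log2(value + 1) minus the mean of the 6 libraries (red higher, blue lower). The WT replicate 3 column differs from WT replicates 1 and 2 in many rows, red for Scap and blue for Idi1, while the 3 E531R columns look alike.

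WT replicate 3 held the highest value of the 6 libraries in 15 members and the lowest in 7. Its deviation followed GC content: over the 31 members the log2 difference from the mean of WT replicates 1 and 2 had a Spearman rho of 0.88 with the GC content of the longest transcript, a description over genes that share the same 3 libraries. In 14 of 14 members with GC above 50% it lay above both other WT libraries, as in Mvk (59.6% GC, 0.55 on the log2 scale) and Scap (59.1%, 0.55). In 5 of 6 members under 45% it lay below both, as in Idi1 (41.9%, -0.78), Ggps1 (40.1%, -0.50) and Hmgcs1 (43.1%, -0.48). Among the 11 members between these bounds the difference ran from -0.31 in Scd1 to 0.24 in Acat2, with Msmo1 (45.2%) at 0.03. Hsd17b7, with a low GC content of 43.9%, differed by -0.03. In 28 of 31 members the sign of the fold change was alike with and without this library. The exceptions were Insig1, Insig2 and Mvk, which did not pass in either case.

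**Figure D4:**
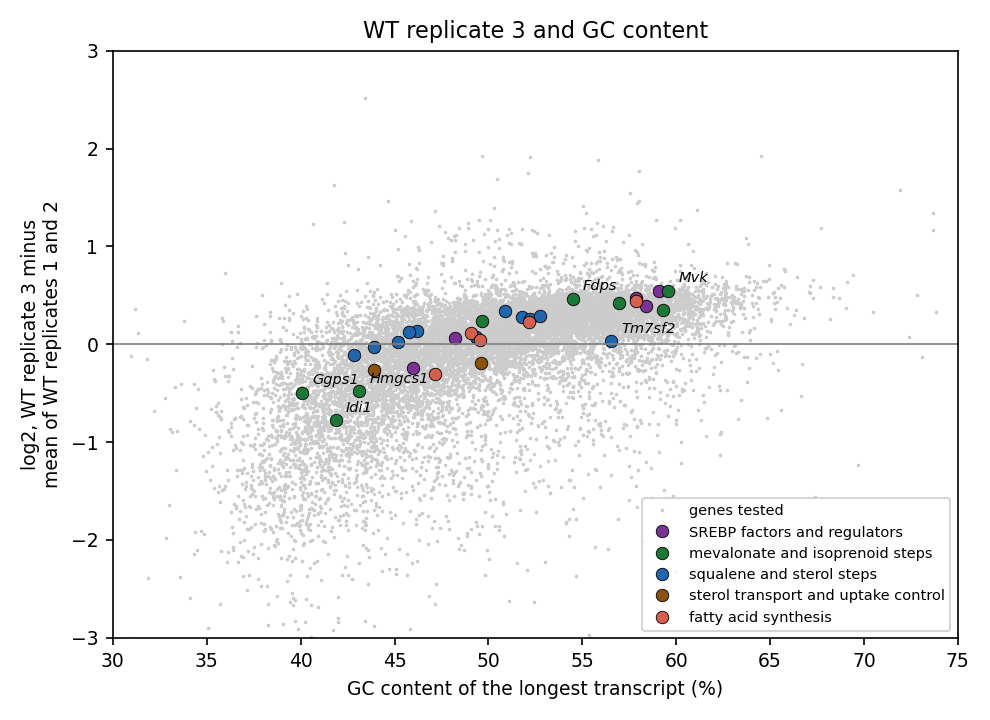
GC content of the longest transcript (x axis, %) against the log2 difference of WT replicate 3 from the mean of WT replicates 1 and 2 (y axis), for 12540 tested genes (grey, 29 more lie outside the axes) and the 31 members (coloured by role). Members rise from Idi1 at -0.78 to Mvk at 0.55 as GC content rises.

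Other genes of the same processes, in 5 lists with 71 names of which 70 could be tested, had 7 higher and 12 lower members, or 10% and 17.1% of those tested, against 10.4% and 9.53% of all genes. Of 10 genes of SREBP processing and turnover, 0 were higher and 3 lower: Pgrmc1, a haem-binding membrane protein linked to sterol synthesis, at -0.95, Rnf145, a sterol-regulated ubiquitin ligase of the endoplasmic reticulum, at -0.57, and Erlin2, an endoplasmic reticulum scaffold, at -0.38 (adjusted p = 0.000153, 0.00230 and 0.00424). Pgrmc1 had levels of 2183 ± 66.9 (WT) and 1129 ± 61.6 (E531R; SD, n = 3 each). Without WT replicate 3 the log2 ratios of Pgrmc1, Rnf145 and Erlin2 were -0.97, -0.50 and -0.38, and all passed. Of 12 other sterol and SREBP target genes, 2 were higher and 0 lower: Fabp5, a fatty acid binding protein, at 0.99 and Lbr, a C14 sterol reductase of the nuclear envelope, at 0.22 (adjusted p = 0.000897 and 0.0423). They were 1.10 and 0.22 without WT replicate 3, where both passed. Lbr missed the threshold on omission of any library but WT replicate 3 (adjusted p between 0.102 and 0.197), and after correction for GC content and length (0.05, adjusted p = 0.728).

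Of 19 other genes of fatty acid synthesis and elongation, 1 was higher and 4 lower. The desaturase gene Fads2 had 119 ± 12.7 and 29.2 ± 2.92 (WT and E531R; SD, n = 3 each), a log2 ratio of -1.99 (adjusted p = 0.000180), and its partner Fads1 had -0.44 (adjusted p = 0.0132). Acacb, the carboxylase that restrains fatty acid oxidation, had -1.47, and Acsl1, an acyl-CoA synthetase, was the higher member at 0.70 (adjusted p = 0.000867 and 0.000284). Fads2, Fads1, Acacb and Acsl1 passed without WT replicate 3 at -1.98, -0.36, -1.36 and 0.72. Omitting E531R replicate 2 or 3 ended the Fads1 call (adjusted p = 0.0741 and 0.0672). Of 14 isoprenoid branch genes, 0 were higher and 3 lower: the prenyltransferase subunits Fnta (-0.53) and Rabggta (-0.37), and Pdss2 of coenzyme Q synthesis (-0.36; adjusted p = 0.00897, 0.0383 and 0.0431). Fnta lost its call without E531R replicate 2 (adjusted p = 0.0536). Rabggta and Pdss2 lost theirs on omission of any library but WT replicate 3, with adjusted p between 0.0525 and 0.146 for Rabggta and between 0.0687 and 0.183 for Pdss2. With DESeq2, Pdss2 had an adjusted p of 0.0861. Fnta, Rabggta and Pdss2 passed without WT replicate 3 at -0.44, -0.32 and -0.35.

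Genes of sterol efflux, storage and transport changed in both directions: of 15 tested, 4 were higher and 2 lower. Of all genes tested, 10.4% were higher and 9.53% lower. The median log2 ratio was 0.24, against 0.01 over all genes. Abcg1, a sterol exporter switched on by LXR, went from 338 ± 25.9 to 1085 ± 46.5, and the cholesteryl ester hydrolase genes Nceh1 and Lipa from 650 ± 62.7 to 1266 ± 21.0 and from 1557 ± 179 to 2889 ± 108 (SD, n = 3 each). Their log2 ratios were 1.68, 0.97 and 0.90 (adjusted p = 3.28e-05, 0.000368 and 0.000763), and 1.73, 0.90 and 0.98 without WT replicate 3, where all passed. Of the lower genes, Cyp27a1 went from 64.9 ± 8.03 to 27.5 ± 4.83 (SD, n = 3 each). Its log2 ratio was -1.22 (adjusted p = 0.00495 by limma), and -1.18 without WT replicate 3 (adjusted p = 0.000362). The other lower gene, the lipoprotein receptor gene Vldlr, met the filter on low values through WT alone. Vldlr had 13, 20 and 17 reads in WT and 1, 2 and 2 in E531R. The log2 ratio depended on the pseudocount, at -3.31 with 0.5 and -1.32 with 10 (adjusted p = 0.00228 and 0.00206; -3.22 with 1 and without WT replicate 3), so no size is read from it. Abca1, the other LXR-driven exporter, was low, at 9.96 ± 2.95 (WT) and 19.8 ± 4.76 (E531R), and met the filter on low values through E531R alone. It did not pass (0.94, adjusted p = 0.0784), though it did without WT replicate 3 (0.98, adjusted p = 0.0277). Macrophages express efflux and storage genes such as these. Of 10 tested macrophage and monocyte markers, 9 were higher and Ccr2 was lower. The part of cell types in the values of the efflux and storage genes was not tested. Without WT replicate 3, 11 of the 15 efflux, storage and transport genes were higher and 2 lower. That fit called 24.3% and 23.1% of all genes in these directions.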

How the data were processed

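The submitters' processing notes name the build GRCm38 and, as tools, HISAT2, featureCounts and DESeq2 (besides cutadapt, SAMtools and FastQC); the sources used here give no versions, annotation or strand setting. The authors deposited 1 table of signal values, gene reads divided by a size factor per library, with 100% of values whole reads within 0.01. Per the file headers it also holds the authors' log2 fold change, its standard error, the test score and p-values, from DESeq2.

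The main test was limma 3.58.1 with an intensity trend in R 4.3.3 on log2(value + 1), over the 12991 genes whose mean reached 10, two-sided, without covariates, with Benjamini-Hochberg adjustment over all genes. Fold changes on this scale understate those of low genes. It was tested on simulated data. Size factors hide a shift shared by all genes. Alternatives were other pseudocounts, filters, scalings, edgeR 4.0.16, DESeq2 1.42.0 and voom on recovered reads, array weights, a replicate block, removal of GC and length trends, and leaving out each library. Deviations of same-numbered libraries had correlations of 0.0017, 0.19 and 0.24, and WT replicate 1 with E531R replicate 2 had 0.18. Deviations from a mean of 3 libraries are bound to each other, so these values can neither show nor exclude pairing. The numbers were not used as pairs in the main test. Leaving out a library kept the same 12991 genes.

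All 31 members are described by role; of the other pathway lists, up to 4 genes past the threshold with the smallest adjusted p are named. Kit, Abca1, Cyp27a1, Ctsb and the C1q genes were named with their values already known. Members and lists were chosen with earlier results of these data known. Positions, lengths and GC content were taken from GENCODE M21 (GRCm38), matched by symbol for 45250 rows, and promoters from RefSeq. Other genes of the pathway are not reported here. Figures used matplotlib 3.10.9.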

Additional observations from a re-analysis of the deposited data

How the results depend on the processing

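Over 6 libraries, 5 members were higher and 3 lower. With limma array weights these were 12 and 7 (against 26.4% and 25.1% of all genes; the weights stopped before full convergence), without WT replicate 3 with edgeR 11 and 6 (24.0% and 23.6%), and with the replicate block 3 and 2 (9.08% and 8.17%). Correction for GC content and length gave 4 and 2 (15.6% and 16.4%), or 5 and 4 with the block as well (15.6% and 16.8%). Leaving out 1 library in turn with limma gave 1 to 11 higher and 0 to 6 lower; the highest numbers are those without WT replicate 3, and 0 were lower without E531R replicate 2 or 3. With the block Sc5d, Msmo1 and Acaca lost their calls (adjusted p = 0.0582, 0.0904 and 0.069), and without a filter on low values Msmo1 and Acaca did (0.0577 and 0.06); 0 other member calls changed with the block. Of the members, 8 had a fold change that turned sign under some setting. Of these, 0 passed in the main fit or in a setting where the sign turned. In settings without a turn, Ggps1 passed as lower without WT replicate 3 (adjusted p = 0.0486 with limma and 0.0218 with edgeR). Likewise Pmvk passed as higher with limma array weights (adjusted p = 0.024). Pmvk turned to -0.022 with upper-quartile scaling, -0.0010 with edgeR, -0.0022 with DESeq2, -0.0022 with voom, -0.086 without WT replicate 1 and -0.036 without WT replicate 2. Insig2 turned to -0.012 with array weights, -0.048 with the GC and length trend removed (with and without the block), and -0.020 (limma) or -0.019 (edgeR) without WT replicate 3. Insig1 turned to 0.0023 with array weights and without WT replicate 3. Mvk turned to 0.058 with array weights, and 0.10 (limma) or 0.12 (edgeR) without WT replicate 3. Ebp turned to 0.026 with array weights and 0.0039 with edgeR without WT replicate 3. Tm7sf2 turned to 0.011 with the GC and length trend removed (with and without the block) and 0.029 without E531R replicate 3. Ggps1 turned to 0.097 without WT replicate 2 and 0.017 without E531R replicate 3. Mylip turned to 0.014 without WT replicate 1 and 0.0097 without E531R replicate 3. Over the fits that left out 1 library, the log2 ratios ran from -0.0858 to 0.149 for Pmvk, -0.020 to 0.10 for Insig2, -0.040 to 0.0023 for Insig1, -0.224 to 0.104 for Mvk, -0.0998 to 0.029 for Tm7sf2, -0.213 to 0.097 for Ggps1 and -0.092 to 0.014 for Mylip. The causes were not tested. Depth limits Scd1 most, with 14 to 46 reads per library.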
